A study of Mus musculus with 3 samples.

Results

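The small leucine-rich proteoglycans examined here were 8 genes chosen by symbol, decorin (Dcn), biglycan (Bgn), lumican (Lum), fibromodulin (Fmod), osteoglycin (Ogn), osteomodulin (Omd), Prelp and asporin (Aspn), out of 19057 named genes on the array. They were read by 15 probes, and 4 of the 8 genes were detected and tested, among 8984 detected genes in all. NIH/3T3, an established mouse fibroblast line, was profiled as total RNA on Illumina bead arrays in 3 groups that share the line and its medium with foetal calf serum. The recovery group received 1 uM 5aza-dC for 3 days and was then grown for 14 days without it. The 5aza-dC group received 1 uM 5aza-dC for 3 days and the mock group was mock treated. 5aza-dC (decitabine) is a deoxycytidine analog that enters DNA and traps DNA methyltransferases, so that methylation is lost as cells divide. The comparisons with mock ask which of these genes change while the drug is present and which differ after it has been withdrawn. Only 1 mock sample is given, with no time in culture stated. Drug history and the 14 further days of culture therefore cannot be told apart in the comparisons of recovery. The cells are 1 established line, and DNA methylation itself was not measured in these files.

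Small leucine-rich proteoglycans are secreted matrix proteins built of tandem leucine-rich repeats that bind collagen fibrils and set their diameter and spacing. Most carry chondroitin, dermatan or keratan sulfate chains, and several also hold growth factors or engage receptors on the cell. Fibroblasts of connective tissue are a main source of decorin, biglycan and lumican, while asporin, osteomodulin, osteoglycin and fibromodulin are best known from cartilage, bone, tendon and cornea. In the mouse genome they lie mostly in clusters: Dcn and Lum neighbour each other on chromosome 10, Aspn, Omd and Ogn stand in a row on chromosome 13, Prelp and Fmod share a stretch of chromosome 1, and Bgn is on the X chromosome.

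The promoters of 3 of the genes that were detected are shown because the drug leads to loss of DNA methylation, and the pairs in capitals are the CG dinucleotides. Whether any of these pairs is methylated was not measured. The sequences are those of RefSeq for GRCm38.p6, 250 bases before to 50 bases after the annotated start, with entries for 6 of the 8 genes and none for Dcn and Lum. Prelp was higher than mock in both drug-exposed groups, Ogn moved against it under the drug, and Bgn is the brightest member.
Prelp, chr1:133921352-133921651, minus strand: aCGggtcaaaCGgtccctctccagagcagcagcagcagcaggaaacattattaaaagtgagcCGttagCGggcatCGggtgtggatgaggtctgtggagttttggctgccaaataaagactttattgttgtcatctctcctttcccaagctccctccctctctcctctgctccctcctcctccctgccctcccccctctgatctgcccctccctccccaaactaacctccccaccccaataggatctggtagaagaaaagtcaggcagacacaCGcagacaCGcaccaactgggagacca
Ogn, chr13:49607765-49608064, plus strand: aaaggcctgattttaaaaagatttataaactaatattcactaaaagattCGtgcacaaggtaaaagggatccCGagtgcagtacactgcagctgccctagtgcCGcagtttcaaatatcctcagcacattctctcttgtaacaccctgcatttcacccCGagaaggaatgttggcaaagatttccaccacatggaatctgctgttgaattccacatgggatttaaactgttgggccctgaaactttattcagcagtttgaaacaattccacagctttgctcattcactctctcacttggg
Bgn, chrX:73483351-73483650, plus strand: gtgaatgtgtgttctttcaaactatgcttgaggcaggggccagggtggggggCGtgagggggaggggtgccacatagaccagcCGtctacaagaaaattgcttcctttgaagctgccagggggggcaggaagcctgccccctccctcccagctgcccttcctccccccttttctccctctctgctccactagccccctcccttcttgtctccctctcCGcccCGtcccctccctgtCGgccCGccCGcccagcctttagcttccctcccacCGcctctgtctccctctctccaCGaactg
The Prelp window holds 7 CG dinucleotides, the same as the median of 7 over 32851 promoters of this length, and 47.9% of those promoters hold fewer. The annotated span of Prelp, on the minus strand, reaches to 133930102, so this window lies at a start inside the gene. No window at the outer end of that span was read. Ogn has 4 and Bgn has 9, with 31.4% and 54.2% of promoters holding fewer. Among the undetected members, Fmod and Aspn have 3 each and Omd has 1. Searched on both strands, the letters TATAAA occur 2 times in the Ogn window and are present in 13.6% of all promoters. Both Ogn matches lie in the same stretch, tttataaa, read once on each strand, so they mark 1 place. GGGCGG occurs 3 times in the Bgn window, with 2 of the matches overlapping, and is present in 35.7%. CAGACA occurs 2 times in the Prelp window and is present in 21% of all promoters. TGANTCA, present in 7.81% of promoters, is not in the windows of these 6 genes. These are matches of letters only.

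Detection set the limits of what could be compared, since a detection p-value gives the share of negative control beads at or above a probe. At a detection p-value below 0.01, Bgn, 2 of 4 Dcn probes and 1 of 3 Ogn probes were detected in all 3 groups. The single Prelp probe was detected in recovery and in 5aza-dC but not in the mock column. Both Lum probes, both Fmod probes and the single probes of Omd and Aspn were detected in none. Each deposited column was found to be the mean of 2 arrays, whose values were computed back from the pair of deposited tables, and the levels given below are log2 normalized intensities on those arrays. Whether the 2 arrays of a group come from separate cultures is not stated, so each p-value covers the spread between arrays, which may be technical. In RNA of whole cultures, fewer cells that express a gene and less RNA per cell cannot be told apart. Levels are compared within a probe only, since probes differ in brightness for reasons other than abundance.

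**Figure D1:**
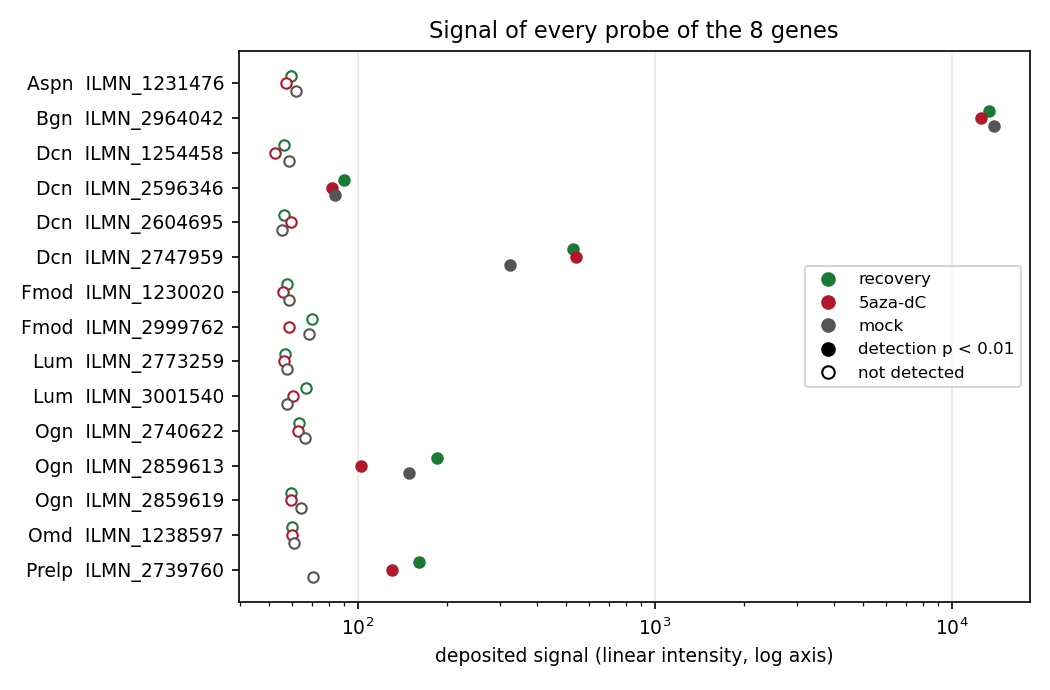
Deposited signal of each of the 15 probes (x axis, linear intensity on a log axis) in recovery, 5aza-dC and mock, with filled points where the detection p-value was below 0.01 and open points where it was not. Bgn lies between 12553.5 and 13815.9 in all groups, 1 Prelp, 1 Ogn and 2 Dcn probes are filled in at least 2 groups, and the other probes stay near the median signal of all probes, 61.1 in recovery, 61.2 in 5aza-dC and 63.8 in mock.

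Prelp, whose protein binds collagen and heparan sulfate and links basement membranes to the matrix below them, rose in all 3 comparisons. Its deposited signal was 160.9 in recovery, 129.9 in 5aza-dC and 70.8 in mock. The 2 arrays read 6.98 and 7.18 in recovery, 6.38 and 6.45 in 5aza-dC, and 4.59 and 4.63 in mock. The 3 groups did not overlap, and recovery was the highest of them. In 5aza-dC against mock Prelp rose by 1.80 ± 0.09 on the log2 scale (SE, n = 2 arrays per group), a 3.49-fold difference (limma, Benjamini-Hochberg adjusted p = 1.61e-05). In recovery against mock it rose by 2.47 ± 0.09, or 5.55-fold (limma, Benjamini-Hochberg adjusted p = 2.87e-05). Between recovery and 5aza-dC it rose by a further 0.67 ± 0.09 (limma, Benjamini-Hochberg adjusted p = 0.00165), a call lost when arrays were scaled to the median of all probes (0.44, limma, Benjamini-Hochberg adjusted p = 0.737). In mock only 1 of 2 arrays detected the probe, with detection p-values of 0.00168 and 0.0724, so the folds against mock rest on a level close to background. Their size depended on the background step: without background correction Prelp differed from mock by 0.91 in 5aza-dC and 1.38 in recovery, and with an offset of 50 by 1.03 and 1.54, all past limma. No other probe of Prelp was on the array.

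Decorin binds collagen fibrils, sequesters TGF-beta and antagonizes receptor tyrosine kinases. Its brightest probe read 8.99 and 9.27 in recovery, 8.95 and 9.04 in 5aza-dC, and 7.83 and 7.96 in mock. Both drug-exposed groups lay above mock and overlapped with each other. Dcn rose in 5aza-dC by 1.10 ± 0.11 (2.15-fold; limma, Benjamini-Hochberg adjusted p = 0.000278). In recovery it rose by 1.23 ± 0.11 against mock (2.35-fold; limma, Benjamini-Hochberg adjusted p = 0.000608). Recovery differed from 5aza-dC by 0.13 ± 0.11, which did not pass (limma, Benjamini-Hochberg adjusted p = 0.370). A second detected Dcn probe, much dimmer, read 5.70 and 5.75 in recovery, 5.12 and 5.28 in 5aza-dC, and 4.83 and 5.26 in mock. It was higher in recovery than in mock, by 0.68, but in 5aza-dC its levels overlapped with mock and the difference was 0.15. With the mean of the 4 probes Dcn still passed, at the smaller differences of 0.34 in 5aza-dC and 0.49 in recovery minus mock. The remaining probes of Dcn stayed at background, between 52.4 and 59.6 in signal, and 1 of them is annotated to another transcript record than the other 3.

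Osteoglycin, also called mimecan, is a small keratan sulfate proteoglycan of cornea, bone and vessel wall. It moved in opposite directions under the drug and after it. The detected probe read 7.36 and 7.34 in recovery, 5.76 and 5.94 in 5aza-dC, and 6.51 and 6.52 in mock. The groups did not overlap, with mock between the other two. Ogn fell by 0.67 ± 0.08 in 5aza-dC against mock (limma, Benjamini-Hochberg adjusted p = 0.00071). It rose by 0.83 ± 0.08 in recovery against mock (1.78-fold; limma, Benjamini-Hochberg adjusted p = 0.000887). The difference of recovery and 5aza-dC was the largest, 1.50 ± 0.08, or 2.83-fold (limma, Benjamini-Hochberg adjusted p = 4.07e-05). The other 2 Ogn probes were undetected in every group, with signals of 59.7 and 63.1 in recovery, 59.6 and 62.9 in 5aza-dC, and 64.2 and 66.2 in mock, so the pattern rests on 1 probe. With the mean of the 3 probes recovery minus mock was 0.24 and did not pass (limma, Benjamini-Hochberg adjusted p = 0.0556), and the differences that passed were -0.27 in 5aza-dC minus mock and 0.52 in recovery minus 5aza-dC.

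Biglycan, a chondroitin or dermatan sulfate proteoglycan that binds collagen and, when released, Toll-like receptors, was bright in every group and changed little. Its deposited signal was 13292.1 in recovery, 12553.5 in 5aza-dC and 13815.9 in mock. The arrays read 13.82 and 13.84 in recovery, 13.74 and 13.64 in 5aza-dC, and 13.65 and 13.41 in mock. Signal before normalization was thus highest in mock, and the normalized level was highest in recovery. Recovery against mock gave 0.30 ± 0.10, just past the test (limma, Benjamini-Hochberg adjusted p = 0.0469). That call was lost with a detection p-value below 0.05 as the filter (limma, Benjamini-Hochberg adjusted p = 0.0551), with no filter (limma, Benjamini-Hochberg adjusted p = 0.0871), on leaving out any 1 array other than mock array 1, and when arrays were scaled to their median probe, where the difference was -0.02. Differences of 0.16 ± 0.10 for 5aza-dC minus mock and 0.14 ± 0.10 for recovery minus 5aza-dC did not pass (limma, Benjamini-Hochberg adjusted p = 0.195 and 0.288).

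**Figure D2:**
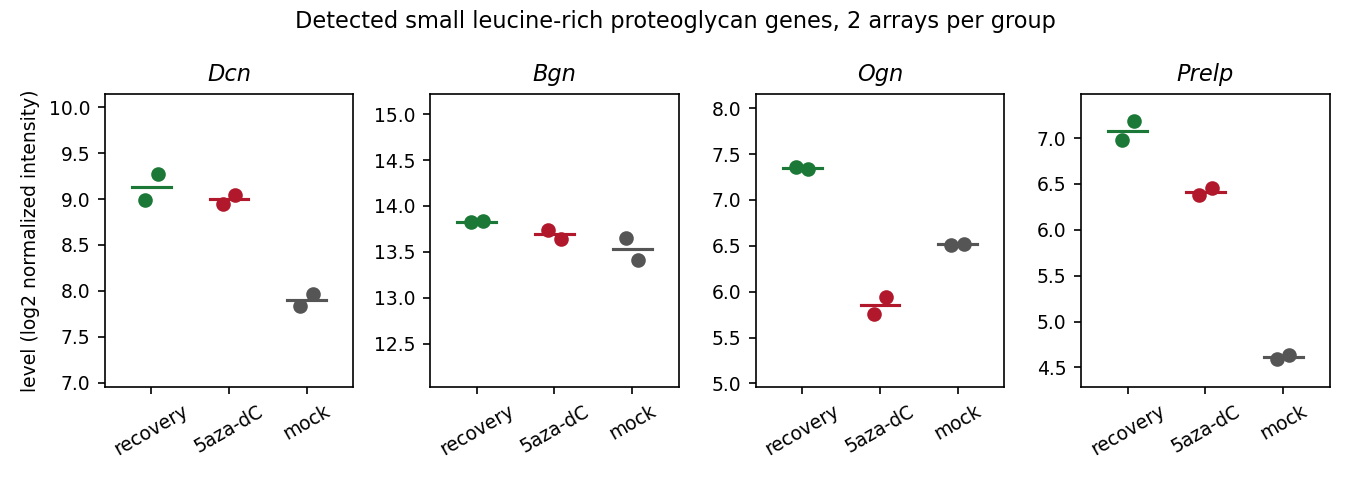
Log2 normalized intensity (y axis, each panel spanning the same log2 range) of the brightest probe of Dcn, Bgn, Ogn and Prelp in recovery, 5aza-dC and mock, with 1 point per array and a line at the mean of the 2 arrays. Prelp and Dcn are higher in both drug-exposed groups than in mock, Ogn is lowest in 5aza-dC and highest in recovery, and Bgn lies within 13.41 to 13.84.

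In the deposited columns the other 4 members stayed at or near background, so at the threshold used these probes could not tell their RNA from negative controls. Lumican, a keratan sulfate proteoglycan that spaces collagen fibrils in cornea and skin, had its brighter probe at a signal of 66.6 in recovery, 60.2 in 5aza-dC and 57.6 in mock, with detection p-values of 0.0572, 0.387 and 0.816 in that order. On the arrays this Lum probe read 4.56 and 4.71 in recovery, 4.24 and 4.36 in 5aza-dC, and 4.17 and 4.20 in mock, and 1 of the 2 recovery arrays detected it (detection p-value 0.00372). Fibromodulin, which modulates collagen fibril growth in tendon and cartilage, came closest to the threshold. The brighter Fmod probe had a detection p-value of 0.0101 in recovery, 0.526 in 5aza-dC and 0.0743 in mock, at signals of 70.2, 58.5 and 68.2. Its arrays read 4.86 and 4.89 in recovery, 4.34 and 4.19 in 5aza-dC, and 4.67 and 4.43 in mock, so recovery lay above the other groups. On 1 of the 2 recovery arrays the Fmod probe was detected (detection p-value 0.00137), and on the other it was not (0.0282). Asporin, which binds collagen and TGF-beta, had signals of 59.6 in recovery, 57.2 in 5aza-dC and 61.9 in mock. Osteomodulin, a keratan sulfate proteoglycan of bone and dentin, lay between 59.8 and 60.8, with detection p-values of 0.407 in recovery, 0.402 in 5aza-dC and 0.557 in mock. With no detection filter, the log2 differences of Fmod and Lum in recovery minus 5aza-dC were 0.61 ± 0.10 and 0.33 ± 0.08 (limma, Benjamini-Hochberg adjusted p = 0.00975 and 0.0373). In recovery minus mock Lum gave 0.45 ± 0.08 (limma, Benjamini-Hochberg adjusted p = 0.0160). Fmod gave 0.33 ± 0.10 there, which did not pass (limma, Benjamini-Hochberg adjusted p = 0.083). In 5aza-dC minus mock neither passed, with Fmod at -0.28 ± 0.10 and Lum at 0.11 ± 0.08. Under the same setting Aspn and Omd differed by between -0.05 and 0.06 in the 3 comparisons.

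Counted over the family, 2 of 4 tested members rose and 1 fell in 5aza-dC against mock, where 30.1% of all 8984 tested genes rose and 27% fell. In recovery against mock all 4 tested members rose, where 22.1% of all genes rose and 18.4% fell. In recovery against 5aza-dC 2 of 4 rose and none fell, where 21.6% of all genes rose and 20.9% fell. A rise of at least 2-fold that passed limma was seen for Prelp and Dcn in 5aza-dC (2 of 4, against 6.62% of all genes) and for the same 2 genes in recovery against mock (1.66%), and for Ogn in recovery against 5aza-dC (1 of 4, against 0.879%). Without background correction neither Prelp (0.91) nor Dcn (0.97) reached 2-fold in 5aza-dC, and with the mean of probes Dcn reached it in neither comparison and Ogn did not reach it (0.52). No member fell by 2-fold in these comparisons, against 2.48%, 1.26% and 4.41% of all genes. The median difference of the tested members was 0.63, 1.03 and 0.40 in 5aza-dC minus mock, recovery minus mock and recovery minus 5aza-dC, and that of all tested genes was 0.01, 0.03 and 0.02. The 4 tested genes are those that passed the detection filter, which Prelp did only through the drug-exposed groups where it is high, so these counts and medians are a description. Both comparisons with mock share the mock arrays. Scaling to the median of all probes moved the median of all genes to -0.12, -0.27 and -0.16, raised the SE of each member to 0.34, and left only Prelp past limma in both comparisons with mock and Ogn in recovery against 5aza-dC. Under it Dcn differed from mock by 0.93 in 5aza-dC and 0.89 in recovery, and Ogn by -0.73 and 0.54.

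**Figure D3:**
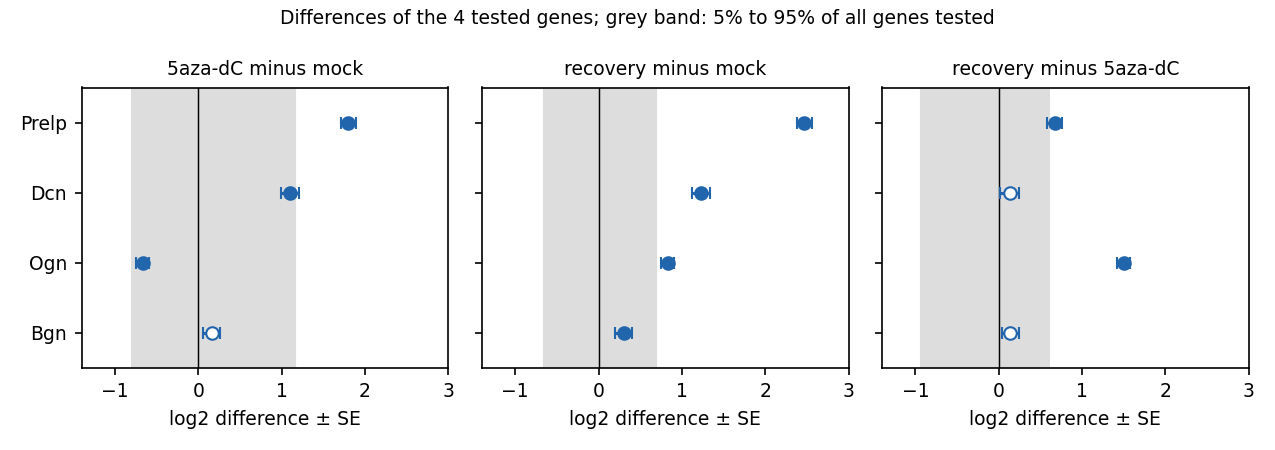
Log2 differences (x axis, ± SE, n = 2 arrays per group) of Prelp, Dcn, Ogn and Bgn in 5aza-dC minus mock, recovery minus mock and recovery minus 5aza-dC, filled where limma passed. The grey band holds 90% of all tested genes, and Prelp lies to the right of it in all 3 panels (1.80, 2.47 and 0.67).

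No member that was detected had a detected member beside it on its chromosome. Next to Dcn, which rose, lie Lum and the cornea proteoglycan gene Kera, and neither passed the detection filter in any group. Without that filter Lum, which 1 recovery array detected, differed by 0.45 ± 0.08 in recovery minus mock and 0.11 ± 0.08 in 5aza-dC minus mock. On the other side of Dcn the nearest measured gene was the growth inhibitor Btg1, 856.7 kb away. Btg1 differed by 0.00 ± 0.07 in recovery minus mock and rose by 0.23 ± 0.07 in 5aza-dC (limma, Benjamini-Hochberg adjusted p = 0.0285). Beside Prelp, neither Optc, another gene of the family, nor Fmod was detected, and the calcium pump gene Atp2b4 differed by 0.20 ± 0.11 in 5aza-dC and -0.31 ± 0.11 in recovery against mock, neither past the test. In the row of Ecm2, Aspn, Omd and Ogn on chromosome 13, Ogn alone was detected. Cenpp, a kinetochore gene whose span holds those of Aspn, Omd and Ogn, rose by 0.50 ± 0.11 in 5aza-dC, where Ogn fell, and by 0.39 ± 0.11 in recovery (limma, Benjamini-Hochberg adjusted p = 0.00857 and 0.0310). At the ends of that row Ippk, an inositol phosphate kinase, fell by 0.94 ± 0.07 in 5aza-dC and fell by 0.57 ± 0.07 in recovery against mock. Iars, an isoleucine tRNA synthetase, differed by -0.05 ± 0.08 and 0.13 ± 0.08. None of the 4 genes taken as neighbours of Bgn was detected.

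By distance over both differences from mock, the genes most like Prelp and Ogn, the members with the widest ranges (2.47 and 1.50), were named. For Prelp they were Cavin2 (1.73 ± 0.08 in 5aza-dC minus mock and 2.59 ± 0.08 in recovery minus mock, at a distance of 0.14), Masp1 (2.23 and 2.58), Sdc3 (2.23 and 2.66), P2ry14 (1.71 and 2.01) and Lrrc75b (1.73 and 1.96). Cavin2 codes for a coat protein of caveolae and Sdc3 for a heparan sulfate proteoglycan of the cell surface. For Ogn they were the collagen gene Col6a2 (-0.73 ± 0.12 and 0.79 ± 0.12, at a distance of 0.08), Gask1b (-0.74 and 0.92), the smooth muscle actin gene Acta2 (-0.54 and 0.76), Tshz3 (-0.41 and 0.74) and the vitamin D receptor gene Vdr (-0.67 and 0.50). The likeness is over 3 groups only.

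Of the wider family, 8 of 10 listed genes had probes and 1 was detected. Podnl1, a gene of the podocan branch, differed by -0.01 ± 0.11 in 5aza-dC minus mock and rose by 0.36 ± 0.11 in recovery against mock and by 0.37 ± 0.11 in recovery against 5aza-dC (limma, Benjamini-Hochberg adjusted p = 0.0397 and 0.0342). Both Podnl1 calls were lost without a detection filter, with median scaling and on leaving out any 1 recovery or 5aza-dC array, and the call against mock also without mock array 1. Other matrix and cell surface proteoglycans, 15 detected of 24 measured, moved both ways. In 5aza-dC 4 rose and 6 fell, in recovery against mock 4 rose and 5 fell, and in recovery against 5aza-dC 7 rose and 3 fell, with medians of -0.12, 0.03 and 0.41. Of all tested genes 30.1%, 22.1% and 21.6% rose in these comparisons, and 27%, 18.4% and 20.9% fell. Syndecan 3 (Sdc3) had the largest rise against mock, by 2.23 ± 0.07 in 5aza-dC and 2.66 ± 0.07 in recovery (limma, Benjamini-Hochberg adjusted p = 3.28e-06 and 1.02e-05). Syndecan 4 (Sdc4), a focal adhesion proteoglycan, had the largest fall in 5aza-dC, at -1.15 ± 0.15. The glypican gene Gpc3 rose by 0.76 ± 0.10 in 5aza-dC but was lower in recovery, at -0.92 ± 0.10 against mock and -1.67 ± 0.10 against 5aza-dC. Perlecan (Hspg2), a basement membrane proteoglycan, followed the signs of Ogn, at -0.47 ± 0.08 in 5aza-dC minus mock, 0.43 ± 0.08 in recovery minus mock and 0.91 ± 0.08 in recovery minus 5aza-dC. With median scaling the Hspg2 differences were -0.66, 0.08 and 0.73 in that order, and none passed.

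The collagens that these proteoglycans bind were listed with the lysyl oxidases that cross-link them. Of 9 detected genes (14 measured), 7 fell and none rose in 5aza-dC against mock (median -0.45), where Col3a1 (-0.10) and Loxl4 (0.20) did not pass. In recovery against mock 5 rose and none fell (median 0.29), with Col1a2 at -0.20 and Col5a1 at -0.13, and in recovery against 5aza-dC 6 rose and none fell (median 0.60), with shares of all genes as given above. Col6a2, a chain of the microfibrillar collagen that decorin and biglycan bind, had the largest difference in each, at -0.73 ± 0.12, 0.79 ± 0.12 and 1.52 ± 0.12 (limma, Benjamini-Hochberg adjusted p = 0.00235, 0.00353 and 0.000183). Col1a1, the main fibrillar collagen chain, fell by 0.64 ± 0.10 in 5aza-dC and rose by 0.45 ± 0.10 in recovery against mock. Lox, the cross-linking oxidase, fell by 0.45 ± 0.09 in 5aza-dC and rose in recovery by 0.48 ± 0.09 against mock. Col1a1, Col6a1, Col6a2, Lox and Loxl1 had the signs of Ogn, lower than mock in 5aza-dC and higher in recovery. Col1a2 (-0.47 and -0.20) and Col5a1 (-0.61 and -0.13) were below mock in both groups, and Loxl4 (0.20 and 0.15) above it in both. In recovery minus mock Col1a2, Col5a1 and Loxl4 did not pass the test. Dcn and Prelp were higher than mock in both groups. With median scaling none of these collagen and oxidase calls against mock passed, and Loxl1 turned from 0.29 to -0.07 in recovery minus mock.

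Enzymes that build the sugar chains showed mostly small differences. Of all tested genes, 30.1% rose and 27% fell in 5aza-dC against mock. In recovery 22.1% rose and 18.4% fell against mock, and 21.6% rose and 20.9% fell against 5aza-dC. For chondroitin and dermatan sulfate, 16 of 25 measured genes were detected, of which 3 rose and 6 fell in 5aza-dC, 3 rose and 3 fell in recovery against mock, and 2 rose and 2 fell in recovery against 5aza-dC, none by 2-fold (medians -0.29, -0.06 and 0.14). Papss2, which makes the sulfate donor, rose by 0.81 ± 0.10 in 5aza-dC (at least 1.39-fold, since neither mock array detected it) and was at least 1.3-fold lower in recovery than in 5aza-dC. The chondroitin sulfotransferase Chst11 was at least 1.39-fold lower in 5aza-dC than in mock, as neither 5aza-dC array detected it, and its relative Chst7 fell by 0.82 ± 0.10 in recovery against mock. B3gat3, which completes the linker between protein and chain, rose in recovery against mock by 0.67 ± 0.15, and Csgalnact1, which starts the chondroitin chain, rose in recovery against 5aza-dC by 0.41 ± 0.10. For keratan sulfate 5 of 9 measured genes were detected, and 2 rose and 1 fell in 5aza-dC, 1 rose and 1 fell in recovery against mock, and 1 rose in recovery against 5aza-dC (medians -0.31, 0.13 and -0.03). Chst1, the keratan sulfate galactose sulfotransferase, was higher than in mock by at least 2.28-fold in recovery and at least 2.32-fold in 5aza-dC (limma, Benjamini-Hochberg adjusted p = 6.25e-05 and 1.2e-05), as neither mock array detected it. Its relative Chst2 fell by 0.32 ± 0.11 in 5aza-dC and rose in recovery by 0.44 ± 0.11 against 5aza-dC, and the core fucosyltransferase gene Fut8 fell by 0.41 ± 0.13 in recovery against mock.

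Among growth factors and receptors that decorin or biglycan is known to bind or act through, 19 of 22 measured genes were detected. In 5aza-dC 7 rose and 8 fell, in recovery against mock 6 rose and 5 fell, and in recovery against 5aza-dC 6 rose and 5 fell (medians -0.20, 0.08 and -0.04). In the same comparisons 30.1%, 22.1% and 21.6% of all tested genes rose, and 27%, 18.4% and 20.9% fell. Bmp4, a morphogen that biglycan binds, rose by 3.11 ± 0.08 in 5aza-dC and 2.07 ± 0.08 in recovery against mock (limma, Benjamini-Hochberg adjusted p = 1.33e-06 and 3.79e-05). The growth factor Tgfb3 rose by 1.19 ± 0.10 and 1.15 ± 0.10. Tlr2 and Tlr4, the Toll-like receptors of free biglycan, rose by 1.23 ± 0.07 and 0.88 ± 0.10 in 5aza-dC, and by 0.35 ± 0.07 and 0.83 ± 0.10 in recovery against mock. Of the kinases that decorin antagonizes, Met fell by 0.61 ± 0.10, Erbb2 fell by 0.64 ± 0.10 and Igf1r fell by 0.67 ± 0.08 in 5aza-dC. Egfr differed by 0.03 ± 0.09. In recovery against mock Igf1r rose by 0.26 ± 0.08 and Egfr fell by 0.31 ± 0.09. Met and Erbb2 differed by 0.10 ± 0.10 and 0.27 ± 0.10 and did not pass. With median scaling none of these kinase calls against mock passed. Under it Bmp4 passed in both comparisons with mock, and Tgfb3 and Tlr2 passed in 5aza-dC only. Tlr2 then differed by 0.01 in recovery minus mock, and Tlr4 passed in neither comparison. The matrix signal protein Ccn2 had the largest fall in 5aza-dC, at -1.04 ± 0.08. The cell cycle inhibitor Cdkn1a had the largest fall in recovery, at -0.89 ± 0.08 against mock and -1.15 ± 0.08 against 5aza-dC, while Igf1r had the largest rise against 5aza-dC (0.93 ± 0.08).

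Proteases that cut these proteins were listed with the procollagen proteinase enhancer Pcolce. Of 9 detected genes (14 measured) 8 rose and none fell in 5aza-dC against mock (median 0.55), where 30.1% of all genes rose and 27% fell, and Adamts1 differed by -0.04 ± 0.10. With median scaling 1 of these calls was left, that of Mmp9. In recovery against mock 5 rose and 2 fell (median 0.47), where 22.1% of all genes rose and 18.4% fell. None of these recovery calls against mock was left with median scaling. In recovery against 5aza-dC 1 rose and 5 fell (median -0.25), where 21.6% of all genes rose and 20.9% fell. The gelatinase Mmp9 rose by 1.29 ± 0.09 in 5aza-dC and fell in recovery, at -0.75 ± 0.09 against mock and -2.04 ± 0.09 against 5aza-dC (limma, Benjamini-Hochberg adjusted p = 6.45e-05, 0.00167 and 1.65e-05). Mmp2, which cleaves decorin, rose by 0.88 ± 0.08 in 5aza-dC and 1.07 ± 0.08 in recovery against mock. Adamts1 rose most in recovery, by 1.12 ± 0.10 against mock and 1.16 ± 0.10 against 5aza-dC. Bmp1, the protease that trims the biglycan propeptide, rose by 0.50 ± 0.08 in 5aza-dC and differed by 0.17 ± 0.08 in recovery minus mock.

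**Figure D4:**
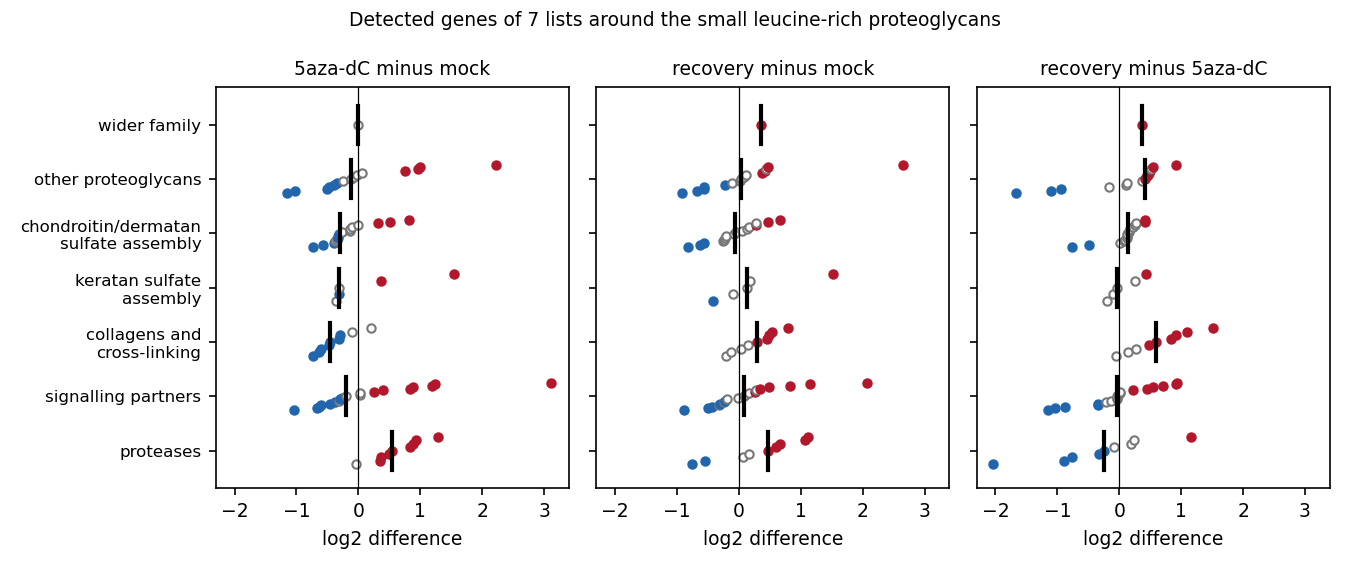
Log2 differences (x axis) of the detected genes of 7 lists in the 3 comparisons, with red for genes that rose, blue for genes that fell, open points for genes not past limma and a black line at each list's median. The collagen and cross-linking genes lie mostly left of 0 in 5aza-dC minus mock (median -0.45) and right of 0 in recovery minus 5aza-dC (median 0.60), and the protease medians are 0.55, 0.47 and -0.25.

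All 8 fibroblast markers were detected in all 3 groups, with summed signals of 16627.5 in recovery, 13034.9 in 5aza-dC and 17658.4 in mock before normalization. On normalized values 1 rose and 4 fell in 5aza-dC against mock (median -0.22), and 4 rose and 1 fell in recovery against mock (median 0.29). Of all tested genes 30.1% rose and 27% fell in 5aza-dC, and 22.1% rose and 18.4% fell in recovery against mock. Pdgfra rose by 1.57 ± 0.09 in 5aza-dC and 1.16 ± 0.09 in recovery, while S100a4 fell by 1.37 ± 0.12 in 5aza-dC and fell by 0.74 ± 0.12 in recovery. The macrophage markers Ptprc, Adgre1, Csf1r and Itgam were undetected throughout, as were the adipocyte markers Adipoq, Fabp4, Plin1 and Cebpa and the epithelial markers Epcam and Cdh1. The summed macrophage signals were 239.5 in recovery, 248.1 in 5aza-dC and 258.9 in mock, and the summed adipocyte signals were 357.6, 391.9 and 345.5, with Pparg detected in each group and higher than mock by 1.43 ± 0.10 in 5aza-dC and 1.04 ± 0.10 in recovery. Markers of cells rich in these proteoglycans were partly present. Of 3 tendon markers 2 were detected in each group, with Tnmd undetected and summed signals of 399.9 in recovery, 629.8 in 5aza-dC and 326.1 in mock, and Scx, the tendon transcription factor, rose by 2.74 ± 0.12 in 5aza-dC and 1.80 ± 0.12 in recovery against mock. Mkx, the other tendon marker detected, fell by 0.27 ± 0.09 in 5aza-dC and differed by -0.21 ± 0.09 in recovery minus mock. Of 6 chondrocyte markers 4 were detected in recovery, 3 in 5aza-dC and 2 in mock, with Matn3 and Col9a1 undetected and summed signals of 4656.1, 5074.3 and 6719.1. On normalized values Col2a1 and Comp rose against mock, by at least 1.08-fold and 1.22-fold in 5aza-dC and 1.94-fold and 1.2-fold in recovery. Neither mock array detected these 2 genes. Acan fell by 0.40 ± 0.09 in 5aza-dC and 0.57 ± 0.09 in recovery, and Sox9 did not pass, at -0.16 and -0.12. Of 5 osteoblast markers Sp7, Ibsp, Bglap and Dmp1 were undetected, and Alpl alone passed detection, in 5aza-dC and mock, with summed signals of 306.6 in recovery, 322.1 in 5aza-dC and 324.2 in mock. Of 4 epithelial markers Krt8 rose by 4.05 ± 0.10 in 5aza-dC and by 1.11 ± 0.10 in recovery against mock. Krt18 rose in 5aza-dC by at least 2.63-fold, as neither mock array detected it, and differed by 0.10 ± 0.15 in recovery minus mock. The summed epithelial signals were 313.8 in recovery, 1060.9 in 5aza-dC and 286.6 in mock. The part of any of these in the proteoglycan differences was not tested. In the mock group the 2 arrays differed more (pooled SD 0.154 over the tested genes) than in recovery (0.116) and 5aza-dC (0.102), and limma used 1 pooled spread.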

How the data were processed

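Total RNA of NIH/3T3 cells was measured in 3 samples, 1 per group. TRIZOL extraction and TotalPrep biotin labelling were used, per the labels' protocols, and the series design names duplicate experiments. The deposited tables hold signal intensity, non-normalized per the file headers, with a detection p-value per probe (the authors' values), and intensity after background subtraction and scaling by the authors, read from its mean of 224.5 in every column; no software was named. Detection p-values lay on steps of 2 arrays with 936 controls each (100.0%), so both arrays of a column were solved from the tables, using p-values between 0.05 and 0.97. The misfit had an SD of 0.00173, 0.00103 and 0.00109 in recovery, 5aza-dC and mock, against 0.0293, 0.0286 and 0.0379 for 1 array. As a check that the fit did not use, the 6 arrays' scaled means came out at 224.3 to 224.9. Array scale factors were 1.2467 and 1.0622, 1.1369 and 0.9398, and 1.1769 and 0.6835.

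Values were normalized with neqc of limma 3.58.1 in R 4.3.3 (offset 16, quantile, log2). A gene was represented by its brightest probe and tested if detected at p below 0.01 in at least 1 column. All 6 arrays entered 1 limma fit (3 residual and 3.70 prior degrees of freedom), with Benjamini-Hochberg adjustment over 8984 genes at 0.05, and "rose" and "fell" mean past this test. A fold is a bound if both arrays of the dimmer group missed detection: the brighter group's mean against, per array, the higher of the probe's own value and the lowest detected probe. Array recovery and limma were also run on simulated data, built from the recovered arrays and from the fitted means and spread. Such runs cannot show whether the 2 arrays of a group come from separate cultures. Of 45281 probes, 34885 had 1 gene symbol, 18 several and 10378 none, and 0 were renamed by Entrez number. There were 0 columns of other samples. Members and lists were chosen with earlier results of these data known. Named are all members, the largest rise and fall of each list per comparison, the nearest 2 measured genes on each side of a member, and the 5 genes nearest to each of the 2 members of widest range; other genes were chosen after their values were seen. The precision is limited by the number of arrays. Alternatives were an offset of 50, no background correction, median scaling, other detection filters, the mean of probes, the deposited columns as single arrays, the scaled table floored at 16, and leaving out each array.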

Additional observations from a re-analysis of the deposited data

How the results depend on the processing

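No paired analysis was possible because the labels give 1 sample per group and the arrays behind a column carry no number. The calls of Prelp in both comparisons with mock and of Ogn in recovery against 5aza-dC passed in every limma alternative run. Scaling each array to its median probe moved the counts of calls most, and the cause was not tested. Under it, genes past limma numbered 978 (569 higher, 409 lower) in 5aza-dC minus mock, against 5130 in the main setting. They numbered 368 (66 higher, 302 lower) in recovery minus mock, against 3637, and 526 (28 higher, 498 lower) in recovery minus 5aza-dC, against 3823. Members past limma numbered 1 in each comparison (1 higher, 0 lower). In that order of comparisons the other proteoglycans had 3, 2 and 3 calls, chondroitin and dermatan sulfate enzymes 0, 0 and 0, and keratan sulfate enzymes 1, 1 and 0. Collagens had 0, 0 and 1, signalling partners 4, 2 and 3, proteases 1, 0 and 2, and the wider family 0 in both comparisons of recovery. Bgn turned to -0.02 in recovery minus mock. Keratan sulfate enzymes had 1 call in recovery minus mock with detection p-values below 0.05 and with no filter. The wider family had 0 in recovery minus mock with no filter and with the mean of probes, and 0 in recovery minus 5aza-dC with no filter. Without background correction Prelp gave 0.91, 1.38 and 0.47, Dcn 0.97, 1.09 and 0.12, and Ogn -0.41, 0.60 and 1.01 in the 3 comparisons. With the mean of probes Dcn gave 0.34 and 0.49 against mock, and 3 members passed in recovery minus mock, Ogn being lost. With no filter 4 members were higher in recovery minus 5aza-dC, Fmod and Lum being added. In the scaled table, floored and with no test, Prelp gave 2.18 and 2.85 and Ogn gave -0.73 and 0.96 in 5aza-dC and recovery minus mock.

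Leaving out 1 array gave 3668 to 5054 genes past limma (1987 to 2653 higher, 1681 to 2401 lower) in 5aza-dC minus mock. In recovery minus mock it gave 2083 to 3768 (1166 to 2067 higher, 917 to 1701 lower), with 2083 and 2199 on leaving out either recovery array. In recovery minus 5aza-dC it gave 2213 to 4559 (1022 to 2362 higher, 1191 to 2197 lower), with 2213 and 2367 without either 5aza-dC array and 2403 and 2538 without either recovery array. Members past limma numbered 3 to 4, 3 to 4 and 2 to 2 in the 3 comparisons. Chondroitin and dermatan sulfate enzymes had 4 to 9, 3 to 7 and 2 to 4 calls, and keratan sulfate enzymes 1 to 3, 1 to 2 and 0 to 1. Collagens had 5 to 7, 3 to 6 and 6 to 7, and signalling partners 11 to 15, 7 to 12 and 8 to 12. Other proteoglycans had 9 to 11, 6 to 9 and 7 to 11, proteases 6 to 8, 6 to 7 and 4 to 7, and the wider family 0 to 0, 0 to 1 and 0 to 1. Prelp ranged from 1.74 to 1.86, 2.39 to 2.61 and 0.57 to 0.77, Dcn from 1.04 to 1.16, 1.09 to 1.37 and -0.01 to 0.27, and Ogn from -0.75 to -0.58, 0.82 to 0.85 and 1.42 to 1.59. Bgn ranged from 0.05 to 0.28, 0.20 to 0.41 and 0.09 to 0.19, and passed in 5aza-dC minus mock without mock array 1 (0.28; limma, Benjamini-Hochberg adjusted p = 0.0369). A lone array was assumed to vary like the other groups. Signal near background limits Prelp in mock and the 4 undetected members.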
